A study of Mus musculus with 8 samples.

Results

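Collagen chains are hydroxylated and folded before they leave the cell, trimmed outside it, and joined by cross-links once they lie in fibrils. The genes described here encode 10 proteins of this route and were chosen by name, 1 or 2 for each step, from the 31053 genes in the count tables. They are the chaperone gene Serpinh1, the prolyl 4-hydroxylase subunit genes P4ha1 and P4ha2, the lysyl hydroxylase genes Plod1 and Plod2, the procollagen C-proteinase gene Bmp1 and its enhancer gene Pcolce, the procollagen N-proteinase gene Adamts2, and the lysyl oxidase genes Lox and Loxl1. Levels of all 10 were measured and all 10 passed the filter on low counts, which kept 13813 genes.

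The libraries came from mice on a C57/Bl6 background at postnatal day 11 (P11), with 4 wild-type littermates (Bbs8+/+) and 4 animals homozygous for loss of Bbs8 (Bbs8-/-). Bbs8, listed in the annotation as Ttc8, encodes a subunit of the BBSome, a complex that carries cargo in primary cilia, and its deletion was not restricted to the retinal pigment epithelium (RPE). The labels give the source as RPE eye cups, and the study, which calls the sequenced material RPE specimens, describes RNA extraction from whole eyecups freed of cornea, lens, retina and optic nerve. No removal of choroid or sclera is given for that extraction. The study also describes an isolation in which sheets of RPE were taken off the choroid, without linking it to the sequencing. It states that each animal counted as a biological replicate, and on that basis the 4 libraries of a genotype are taken as separate animals. The 3′ ends of polyadenylated transcripts were sequenced with the QuantSeq method and the comparison asks how loss of Bbs8 alters transcript levels in this tissue.

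Collagen chains are made in the endoplasmic reticulum, where prolyl hydroxylation stabilises the triple helix, lysyl hydroxylation prepares the sites of later cross-links, and the chaperone encoded by Serpinh1, HSP47, holds the folded procollagen until it leaves. Outside the cell, N- and C-proteinases remove the propeptides so that fibrils can form, and lysyl oxidases oxidise lysines of collagen and elastin to start cross-linking. In the eye wall the sclera is largely type I collagen made by fibroblasts, and Bruch's membrane under the RPE holds collagen and elastic layers.

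Reads assigned to genes numbered 1636725 to 2884983 in a library, and levels are given as CPM (counts scaled to the library total) after TMM normalization, which corrects each library by the bulk of its genes. The share of uniquely aligned reads outside annotated genes was 42.1 to 43.4% in Bbs8+/+ and 44.1 to 44.4% in Bbs8-/-, without overlap, and its part in the differences of Serpinh1 and the collagens was not tested. A level of 3 counts corresponded to 1.04 to 1.83 CPM. QuantSeq reads 1 end of each transcript, so CPM was not divided by transcript length and levels are compared between libraries and not between genes, except in the ratios named as such. Ttc8 lay at 14.7, 19.7, 18.2 and 21.7 CPM in Bbs8+/+ replicates 1 to 4 and at 9.72, 3.66, 2.30 and 4.21 CPM in Bbs8-/- replicates 1 to 4, a log2 fold change of -1.95 (edgeR quasi-likelihood test, FDR = 2.75e-06). The groups did not overlap in the gene that defines them, and whether the 3′ end read here lies in the deleted part is not given in the sources used here. In bulk tissue, fewer cells of a type and less RNA per cell cannot be told apart.

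Of the 10 genes, Serpinh1 alone passed FDR 0.05 in the edgeR quasi-likelihood test, and it was lower in Bbs8-/-. Across all tested genes 2.24% passed in either direction and 1.14% passed as lower in Bbs8-/-. Without regard to any threshold, 7 of the 10 had a negative log2 fold change and 3 a positive one, with a median of -0.15 against -0.0041 over all tested genes. An unadjusted p under 0.05 was found for 3 of them, Serpinh1, Adamts2 and Pcolce, and for 13% of all genes. Levels did not overlap between the genotypes for 2 of the 10, Serpinh1 and Adamts2, while 7.38% of all tested genes showed no overlap.

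**Figure D1:**
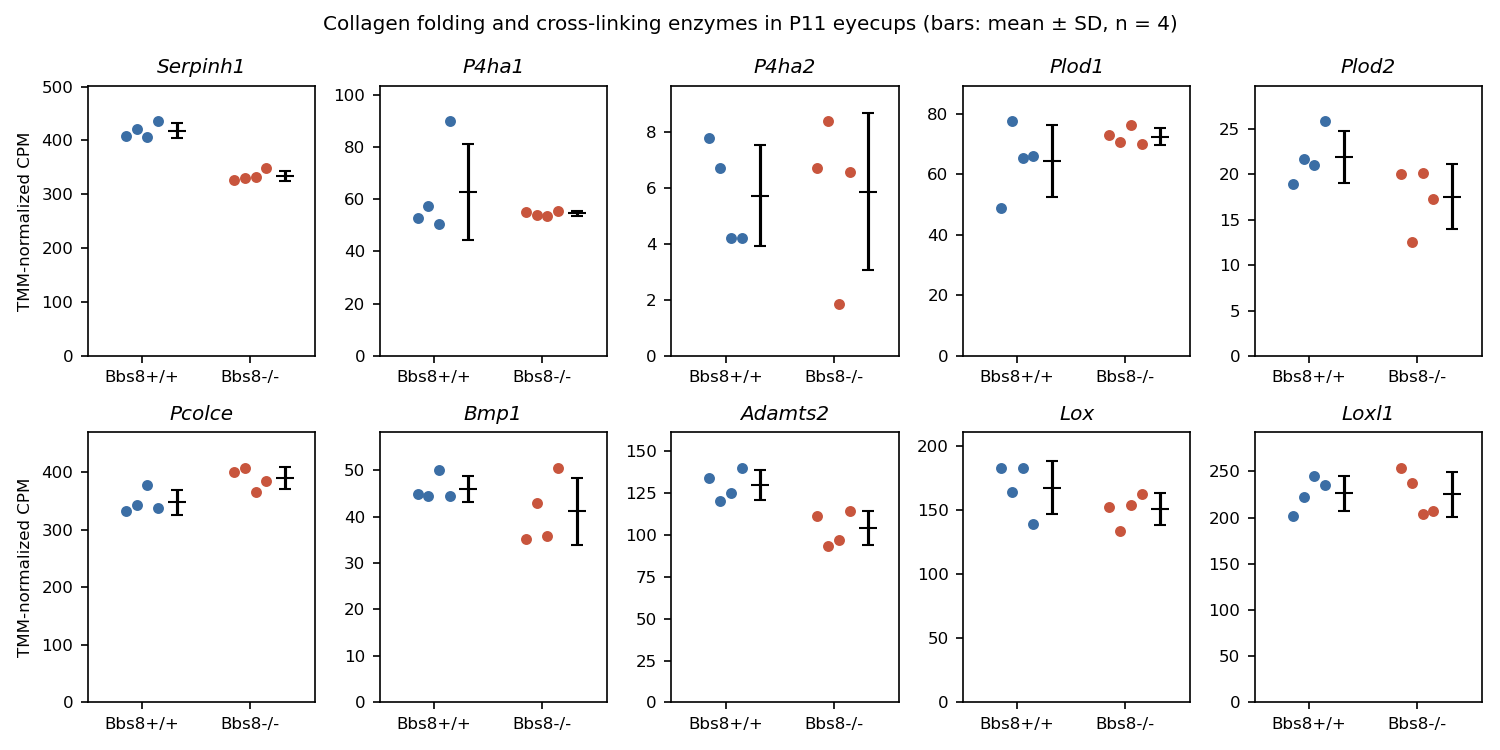
TMM-normalized CPM of each of the 10 genes in every library, with Bbs8+/+ in blue, Bbs8-/- in red, and mean ± SD (n = 4) beside the points; each panel has its own axis from 0. The genotypes are apart for Serpinh1 (407 to 436 against 327 to 348 CPM) and Adamts2 (120 to 140 against 93.6 to 114 CPM) and share part of their range for the other 8.

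Promoter sequence was taken for the genes with an entry in RefSeq on GRCm38.p6, the mouse assembly also called mm10, as the 250 bases before the transcription start. Entries were found for 6 of the 10, Serpinh1, P4ha1, P4ha2, Plod1, Pcolce and Adamts2, and not for Plod2, Bmp1, Lox and Loxl1. The windows of P4ha2 (chr11:54100674-54100923) and Pcolce (chr5:137611405-137611654) lie within the spans of these genes given below, so their starts are not the outermost annotated ones. The sequences shown are those of the pair whose levels did not overlap between genotypes, Serpinh1 at chr7:99353240-99353489 on the minus strand and Adamts2 at chr11:50601835-50602084 on the plus strand, and, as a gene whose levels overlapped, Plod1 at chr4:147936777-147937026 on the minus strand. Capitals mark matches on either strand to 3 motifs. The GC box was searched as GGGCGG. The CCAAT box was searched by the letters of its name. The core of the hypoxia response element was searched in its ACGTG form only, and GCGTG was not searched.
Serpinh1: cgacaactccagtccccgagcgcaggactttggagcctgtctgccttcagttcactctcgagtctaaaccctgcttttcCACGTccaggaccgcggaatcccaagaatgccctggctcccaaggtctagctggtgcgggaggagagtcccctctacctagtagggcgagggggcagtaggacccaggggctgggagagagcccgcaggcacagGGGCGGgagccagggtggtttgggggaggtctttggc
Adamts2: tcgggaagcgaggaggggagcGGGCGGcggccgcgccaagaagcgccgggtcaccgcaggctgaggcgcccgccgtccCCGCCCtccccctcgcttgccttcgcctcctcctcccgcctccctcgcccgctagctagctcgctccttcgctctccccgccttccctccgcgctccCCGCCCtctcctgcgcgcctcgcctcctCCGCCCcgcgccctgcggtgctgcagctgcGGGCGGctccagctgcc
Plod1: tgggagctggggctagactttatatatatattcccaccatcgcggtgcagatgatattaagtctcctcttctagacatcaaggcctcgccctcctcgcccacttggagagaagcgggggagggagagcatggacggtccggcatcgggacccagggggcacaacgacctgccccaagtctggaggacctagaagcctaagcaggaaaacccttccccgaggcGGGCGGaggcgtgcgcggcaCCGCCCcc

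All 6 windows held a GC box, a motif present in 32.7% of 32817 mouse promoter windows of the same length. Adamts2 had 5 matches in a window of 78% GC, Serpinh1 had 1 in a window of 63.6% GC, and Plod1 had 2 in a window of 61.6% GC. The ACGTG core was found in 3 of the 6, Serpinh1, P4ha1 and P4ha2, and in 16.6% of all windows. CCAAT was found in none of the 6 and in 33.8% of all windows.

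Serpinh1 (ENSMUSG00000070436, chr7:99345376-99353239, minus strand) encodes HSP47, a collagen-specific chaperone. Its level was 407, 421, 407 and 436 CPM in Bbs8+/+ replicates 1 to 4 and 327, 331, 332 and 348 CPM in Bbs8-/- replicates 1 to 4. Every Bbs8-/- library lay below every Bbs8+/+ library, and the spread within each genotype was small, with a coefficient of variation of 3.26% and 2.78%. The wild-type mean of 418 ± 13.6 CPM compared with 334.5 ± 9.28 CPM in the knockout (SD, n = 4 each). On the log2 scale Serpinh1 changed by -0.32 (standard error 0.0637), to 80.0% of the wild-type level (edgeR quasi-likelihood test, FDR = 0.000244). Counts behind these levels were 538 to 1246 per library. The fall passed the threshold in 16 of 16 alternative settings, with log2 fold changes from -0.34 to -0.30.

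P4ha1 (ENSMUSG00000019916, chr10:59323296-59373304, plus strand) encodes the main catalytic subunit of prolyl 4-hydroxylase. It lay at 52.6, 57.5, 50.5 and 89.9 CPM in Bbs8+/+ and at 55.3, 53.9, 53.7 and 55.7 CPM in Bbs8-/-. Bbs8+/+ replicate 4 was high, and the other 7 libraries lay between 50.5 and 57.5 CPM. P4ha1 had a log2 fold change of -0.21 with a 95% interval from -0.48 to 0.06 (edgeR quasi-likelihood test, FDR = 0.554), and without Bbs8+/+ replicate 4 it was 0.03 (FDR = 0.968).

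P4ha2 (ENSMUSG00000018906, chr11:54100095-54131665, plus strand), the gene of an alternative catalytic subunit, had 4 to 18 counts per library. It lay at 7.77, 6.70, 4.21 and 4.20 CPM in Bbs8+/+ and at 6.68, 8.37, 1.84 and 6.55 CPM in Bbs8-/-. The ranges overlapped, and the interval of the log2 fold change ran from -0.83 to 0.87 around 0.02 (edgeR quasi-likelihood test, FDR = 0.993), so that a difference of almost 2-fold either way was not detectable at this depth. P4ha1 took 91.1 ± 3.61% of the P4ha1 and P4ha2 counts in the wild type and 90.5 ± 4.34% in the knockout (SD, n = 4 each), and the means lay closer together than the SD of either genotype.

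Plod1 (ENSMUSG00000019055, chr4:147909753-147936767, minus strand) and Plod2 (ENSMUSG00000032374, chr9:92542223-92608428, plus strand) encode lysyl hydroxylases, of which the Plod2 product is known for hydroxylating the telopeptide lysines. Plod1 lay at 48.8, 77.6, 65.5 and 66.1 CPM in Bbs8+/+ and at 72.9, 70.6, 76.2 and 70.2 CPM in Bbs8-/-. Bbs8+/+ replicate 1 was the lowest library and Bbs8+/+ replicate 2 the highest, so that the Bbs8-/- range lay inside the wild-type range. The log2 fold change of Plod1 was 0.17 with an interval from -0.08 to 0.41 (edgeR quasi-likelihood test, FDR = 0.632).

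Plod2 lay at 19.0, 21.7, 21.1 and 25.9 CPM in Bbs8+/+ and at 20.1, 12.5, 20.2 and 17.3 CPM in Bbs8-/-. Bbs8-/- replicate 2 was lowest, and 2 of the Bbs8-/- libraries lay above Bbs8+/+ replicate 1. The log2 fold change of -0.33 was as large as that of Serpinh1, with a standard error of 0.222 against 0.0637, and did not pass (edgeR quasi-likelihood test, FDR = 0.573). Plod2 had 24 to 74 counts per library and overlaps exons of Gm38391 on the opposite strand. Whether reads were counted by strand is not given in the sources used here, so reads of the pair could not be told apart.

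The division of counts between the lysyl hydroxylase genes does not depend on scaling between libraries. Plod1 made up 72.0, 78.2, 75.7 and 71.9% of Plod1 and Plod2 counts in Bbs8+/+ and 78.4, 84.9, 79.1 and 80.2% in Bbs8-/-. The lowest Bbs8-/- library, at 78.4%, lay just above the highest Bbs8+/+ library, at 78.2%. The means were 74.4 ± 3.07% and 80.7 ± 2.93%, a difference of 6.23 percentage points (two-sided exact permutation p = 0.0286, n = 4 each, the smallest p that 4 against 4 libraries allow). Adjusted over the 3 pairs of related enzymes compared in this way the p was 0.0857, which did not pass.

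Pcolce (ENSMUSG00000029718, chr5:137605103-137613784, minus strand) encodes the procollagen C-proteinase enhancer, a glycoprotein that speeds removal of the C-propeptide. It lay at 332, 343, 378 and 337 CPM in Bbs8+/+ and at 401, 408, 366 and 385 CPM in Bbs8-/-. Bbs8-/- replicate 3 lay below Bbs8+/+ replicate 3, and the other Bbs8-/- libraries lay above all wild-type libraries. Pcolce thus had a log2 fold change of 0.17 (standard error 0.0647), and its unadjusted p of 0.0114 gave an FDR of 0.201 in the edgeR quasi-likelihood test. None of 16 alternatives brought it past the threshold. Exons of Fbxo24 on the same strand and of Gm36266 on the opposite strand overlap Pcolce, and its level is uncertain to that extent.

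Bmp1 (ENSMUSG00000022098, chr14:70474558-70520234, minus strand) encodes the C-proteinase that the Pcolce product assists. It lay at 44.9, 44.5, 50.1 and 44.4 CPM in Bbs8+/+ and at 35.2, 42.9, 35.8 and 50.5 CPM in Bbs8-/-. The highest level was in Bbs8-/- replicate 4, and the other 3 Bbs8-/- libraries lay below all wild-type libraries. Bmp1 had a log2 fold change of -0.15 with an interval from -0.45 to 0.15 (edgeR quasi-likelihood test, FDR = 0.754).

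Adamts2 (ENSMUSG00000036545, chr11:50602084-50807573, plus strand) encodes the procollagen N-proteinase that acts on types I to III procollagen. It lay at 134, 120, 125 and 140.2 CPM in Bbs8+/+ and at 111, 93.6, 96.9 and 114 CPM in Bbs8-/-. All Bbs8-/- libraries were below all Bbs8+/+ libraries, with a gap between 114 and 120 CPM. The means were 130 ± 9.05 and 104 ± 10.2 CPM, so that the Bbs8-/- level was 79.9% of the wild-type level (log2 fold change -0.32, standard error 0.0977, edgeR quasi-likelihood FDR = 0.0526). The size was that of Serpinh1, and the adjusted p fell just short of the threshold of 0.05. It passed in 3 of 16 alternatives, with total counts in place of TMM (FDR = 0.0435), with the filterByExpr filter (FDR = 0.0484) and without Bbs8-/- replicate 4 (FDR = 0.0486). The largest FDR over the alternatives was 0.197. Antisense genes Gm12198, Gm12199 and Gm12200 lie within introns of Adamts2.

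Lox (ENSMUSG00000024529) and Loxl1 (ENSMUSG00000032334, chr9:58287738-58313186, minus strand) encode lysyl oxidases, the first acting on collagen and elastin and the second known for its part in elastic fibre upkeep. Lox lay at 183, 164, 183 and 139 CPM in Bbs8+/+ and at 152, 133, 154 and 163 CPM in Bbs8-/-. Bbs8+/+ replicate 4 was the second lowest of all 8 libraries, and the ranges overlapped. The log2 fold change was -0.14 with an interval from -0.32 to 0.03 (edgeR quasi-likelihood test, FDR = 0.516). Exons of AC161119.1 lie on the opposite strand to Lox, with the same limit as for Plod2.

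Loxl1 lay at 202, 222, 245 and 235 CPM in Bbs8+/+ and at 254, 237, 204 and 207 CPM in Bbs8-/-. The 2 ranges nearly coincided, and the means were 226 ± 18.5 and 225 ± 24.3 CPM. The log2 fold change of -0.01 had an interval from -0.16 to 0.14 (edgeR quasi-likelihood test, FDR = 0.978), so that the data bound any change of Loxl1 more tightly than that of most of the other enzymes. Loxl1 made up 57.5 ± 4.24% of Lox and Loxl1 counts in Bbs8+/+ and 59.8 ± 4.00% in Bbs8-/- (two-sided exact permutation p = 0.571, n = 4 each).

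Added together, the 10 genes reached 1431, 1478, 1529 and 1518 CPM in Bbs8+/+ and 1435, 1391, 1340 and 1417 CPM in Bbs8-/-. Only Bbs8-/- replicate 1 lay within the wild-type range. The mean sum was 1489 ± 44.3 CPM against 1396 ± 41.2 CPM, and without Serpinh1 it was 1071 ± 41.4 against 1061 ± 41.3 CPM. These sums were not tested.

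The fibrillar collagens are the main substrates of these proteins. Of 11 fibrillar collagen genes, 4 were lower in Bbs8-/- past FDR 0.05 in the edgeR quasi-likelihood test, none was higher (also none in DESeq2), and the median log2 fold change was -0.21. An unadjusted p under 0.05 was found for 6. Col1a2, a chain of type I collagen, lay at 15249, 14965, 14311 and 15962 CPM in Bbs8+/+ and at 10153, 10297, 10098 and 10694 CPM in Bbs8-/- (log2 fold change -0.55, FDR = 1.62e-36). Col1a1, the other chain, fell by 0.42 on the log2 scale (edgeR FDR = 2.01e-25) and Col3a1 of type III collagen by 0.21 (edgeR FDR = 0.00017). Neither overlapped between the genotypes. Col5a1, a chain of the type V collagen that nucleates fibrils, had a log2 fold change of -0.35 (edgeR FDR = 0.014) that missed the threshold without Bbs8+/+ replicate 1 (FDR = 0.0948) and without Bbs8-/- replicates 2 (FDR = 0.0572), 3 (FDR = 0.136) or 4 (FDR = 0.0537). Col11a1 did not pass (log2 fold change -0.08, edgeR FDR = 0.508).

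**Figure D2:**
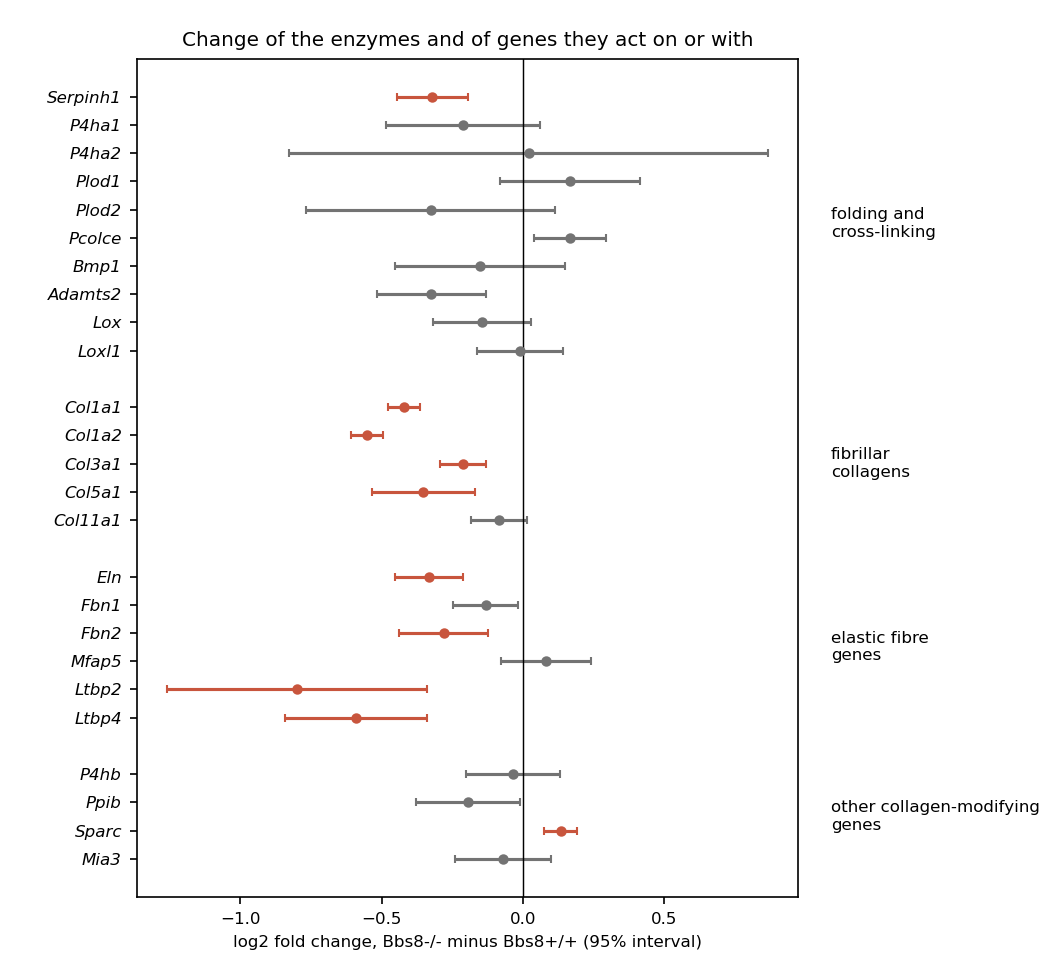
Log2 fold change in Bbs8-/- relative to Bbs8+/+ with its 95% interval from the edgeR fit for the 10 genes and for named fibrillar collagen, elastic fibre and other collagen-modifying genes; red marks FDR under 0.05. Serpinh1 at -0.32 lies between Col3a1 at -0.21 and Col1a1 at -0.42, and the widest interval among the 10 is that of P4ha2, from -0.83 to 0.87.

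Because HSP47 binds type I procollagen, Serpinh1 was set against the summed level of Col1a1 and Col1a2. This sum was 26887, 26698, 26210 and 27559 CPM in Bbs8+/+ and 18552, 18978, 18835 and 19884 CPM in Bbs8-/-, where it had 71% of the wild-type level. Serpinh1 amounted to 15.1, 15.8, 15.5 and 15.8 CPM per 1000 CPM of type I collagen transcripts in Bbs8+/+ and to 17.6, 17.4, 17.6 and 17.5 in Bbs8-/-. The ratio was therefore higher in every Bbs8-/- library, at 17.6 ± 0.091 against 15.6 ± 0.305, although Serpinh1 itself was lower. Both parts of the ratio differed between the genotypes and the ratio was not tested.

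For Pcolce the same ratio was 12.96 ± 1.02 in Bbs8+/+ and 20.5 ± 1.25 CPM per 1000 CPM of type I collagen transcripts in Bbs8-/-, without overlap. For Adamts2 it was 4.84 ± 0.262 and 5.45 ± 0.496, with overlapping ranges. The ratio of Serpinh1 to Pcolce, which needs no collagen value, was 1.21 ± 0.0923 in Bbs8+/+ and 0.860 ± 0.0536 in Bbs8-/-, again without overlap. Serpinh1 exceeded Pcolce in all 4 Bbs8+/+ libraries and lay below it in all 4 Bbs8-/- libraries. Set against all fibrillar collagens, the 10 genes together made 48.5 ± 1.62 CPM per 1000 CPM in Bbs8+/+ and 62.1 ± 2.25 in Bbs8-/-, without overlap. Type I and summed fibrillar collagen transcripts were lower in every Bbs8-/- library, the former at 71% of the wild-type level. A gene of unchanged level would therefore also show a higher ratio to them. The lack of overlap in the collagen ratios of Pcolce and of the 10 genes thus cannot be read as a change in those genes. How many of all genes would separate in this way was not tested, and neither were the ratios.

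**Figure D3:**
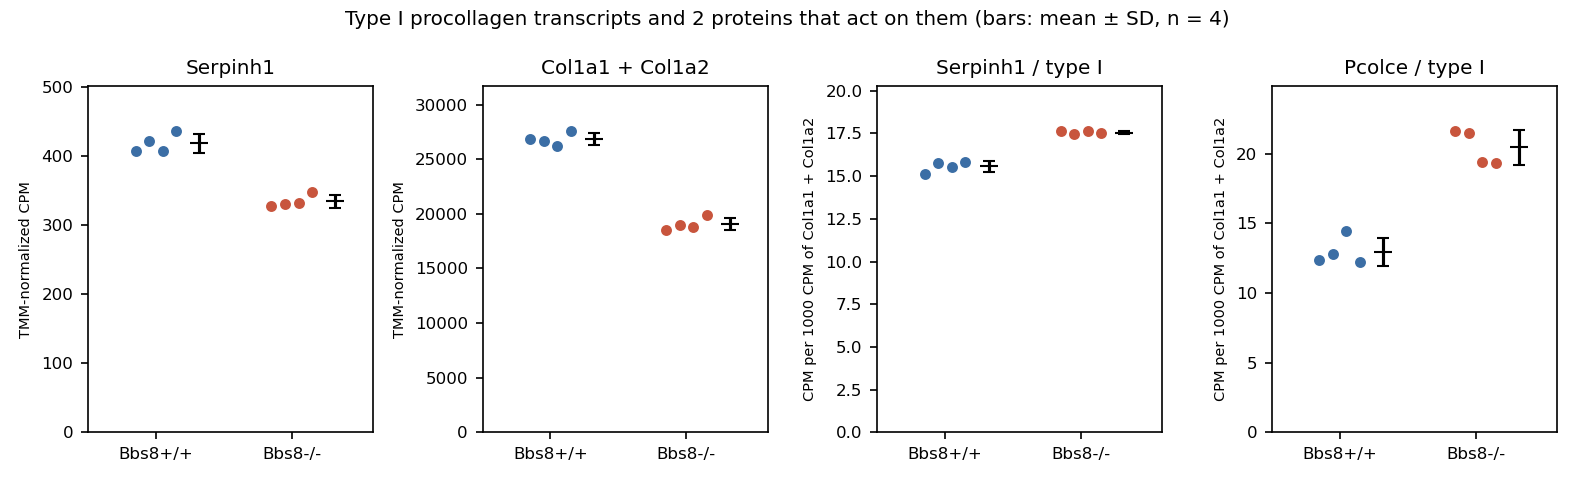
Levels of Serpinh1 and of Col1a1 plus Col1a2 (TMM-normalized CPM), and Serpinh1 and Pcolce per 1000 CPM of Col1a1 plus Col1a2, in each library, with mean ± SD (n = 4) beside the points and axes from 0. Serpinh1 and type I collagen transcripts are both lower in Bbs8-/-, while the Serpinh1 ratio is higher, at 17.6 against 15.6, and so is the Pcolce ratio, at 20.5 against 12.96. The lower collagen level in the denominator raises both ratios.

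Other genes of the same route were taken from a list of 26 collagen-modifying genes, of which 24 could be tested. In the edgeR quasi-likelihood test 1 was higher in Bbs8-/-, none was lower, and 23 did not pass, with 16 negative and 8 positive log2 fold changes and a median of -0.10. An unadjusted p under 0.05 was found for 5 of them, and DESeq2 also called 1 higher and 0 lower. Sparc, which encodes a collagen-binding matrix glycoprotein, was the gene that passed. It lay at 10529, 10351, 10881 and 10154 CPM in Bbs8+/+ and at 11435, 11402, 10956 and 12174 CPM in Bbs8-/-, all above the wild-type range (log2 fold change 0.13, edgeR quasi-likelihood FDR = 0.00148). With the edgeR likelihood ratio test Sparc did not pass (FDR = 0.225).

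P4hb, the subunit that P4ha1 and P4ha2 products need for activity, had a log2 fold change of -0.04 (edgeR FDR = 0.915). Ppib, a prolyl isomerase gene of the collagen-folding complex, had -0.19 (edgeR FDR = 0.356), and Mia3, which acts in the export of procollagen from the endoplasmic reticulum, had -0.07 (edgeR FDR = 0.809). None of these 3 passed.

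Elastin is the other substrate of the lysyl oxidases. Of 16 elastic fibre genes, 4 were lower and none higher past FDR 0.05 in the edgeR quasi-likelihood test, with a median log2 fold change of -0.06. DESeq2 called 3 lower and 0 higher, and 6 had an unadjusted p under 0.05. Eln lay at 495, 483, 473 and 507 CPM in Bbs8+/+ and at 378, 406, 374 and 396 CPM in Bbs8-/-, without overlap (log2 fold change -0.33, edgeR FDR = 4.71e-05). Ltbp4, which encodes a protein that links elastin and latent TGF-beta to microfibrils, had a log2 fold change of -0.59 (edgeR FDR = 0.00103). Fbn2 had -0.28 (edgeR FDR = 0.0326) and Ltbp2 -0.80 (edgeR FDR = 0.0381). Both lost the call without single libraries, with an FDR of up to 0.225 for Fbn2 and up to 0.169 for Ltbp2. Those libraries were Bbs8+/+ replicates 1 and 2 and Bbs8-/- replicates 2, 3 and 4 for Fbn2, and Bbs8+/+ replicates 1 and 4 and every Bbs8-/- replicate for Ltbp2. Fbn1 (log2 fold change -0.13, edgeR FDR = 0.294) and Mfap5 (0.08, edgeR FDR = 0.755) did not pass. With Loxl1 level and Eln lower, the ratio of Loxl1 to Eln was 0.462 ± 0.0443 in Bbs8+/+ and 0.580 ± 0.0658 in Bbs8-/-, without overlap and without a test.

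Among 20 non-fibrillar collagen genes, whose products also pass through the hydroxylases and HSP47, 4 were lower and 1 higher past FDR 0.05, with a median log2 fold change of -0.12. Col16a1 was lower by a log2 fold change of -0.34 (edgeR FDR = 0.00209) and Col6a3 by -0.28 (edgeR FDR = 0.0056), the latter not without Bbs8+/+ replicate 4 (FDR = 0.226). The basement membrane chains differed in sign. Col4a1 (log2 fold change -0.24, edgeR FDR = 0.0366) and Col4a2 (-0.28, edgeR FDR = 0.0328) were lower, and Col4a3 (0.30, edgeR FDR = 0.0395) was higher. Each of the type IV calls was lost when any 1 of several libraries was left out, with an FDR of up to 0.196, 0.23 and 0.176. The exceptions, whose removal kept the call, were Bbs8+/+ replicate 4 for Col4a1, Bbs8+/+ replicate 4 and Bbs8-/- replicate 2 for Col4a2, and Bbs8+/+ replicates 3 and 4 for Col4a3. Col8a1 (log2 fold change -0.03, edgeR FDR = 0.825), Col8a2 (0.03, edgeR FDR = 0.906) and Col14a1 (-0.13, edgeR FDR = 0.328) did not pass.

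P4ha1, P4ha2, Plod2 and Lox are known targets of hypoxia signalling. Of 20 hypoxia-inducible genes listed, 19 were found and 17 tested, of which 1 was higher, none was lower and the median log2 fold change was -0.07 (edgeR quasi-likelihood test, with the same counts in DESeq2). An unadjusted p under 0.05 was found for 3. The gene that passed was Vegfa, which encodes a growth factor for the choroidal vessels (log2 fold change 0.33, edgeR FDR = 0.00315). Slc2a1 (-0.07, edgeR FDR = 0.775), Ndrg1 (-0.15, edgeR FDR = 0.673) and Ddit4 (0.04, edgeR FDR = 0.936) did not.

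Fibroblasts of the sclera and choroid are a known source of the transcripts described here. By sign alone, 7 of 13 fibroblast marker genes were higher in Bbs8-/- and 6 were lower, with a median log2 fold change of 0.01. Past FDR 0.05, 2 of the 13 markers were higher and none was lower (edgeR quasi-likelihood test). An unadjusted p under 0.05 was found for 5 of the markers, some higher and some lower. Their summed level was 6554 to 6951 CPM in Bbs8+/+ and 7022 to 7280 CPM in Bbs8-/-, without overlap, and Dcn, the gene of the matrix proteoglycan decorin, held most of it (log2 fold change 0.09, edgeR FDR = 0.174). The markers that passed were Pi16 (log2 fold change 0.64, edgeR FDR = 0.00019) and Thy1 (0.76, edgeR FDR = 0.0455), which without Bbs8+/+ replicate 4 had an FDR of 0.233. Of the 8 fits that left out a library, only that without Bbs8+/+ replicate 3 kept the Thy1 call. The 10 collagen folding and cross-linking genes made 219 ± 10.2 CPM per 1000 CPM of fibroblast markers in Bbs8+/+ and 195 ± 8.01 in Bbs8-/-, without overlap. Dcn held 87% of the marker sum, and without it the other markers summed to 876 to 958 CPM against 871 to 941 CPM and the ratio was 1632 ± 85.3 against 1537 ± 77.0, both with overlap. Neither ratio was tested.

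**Figure D4:**
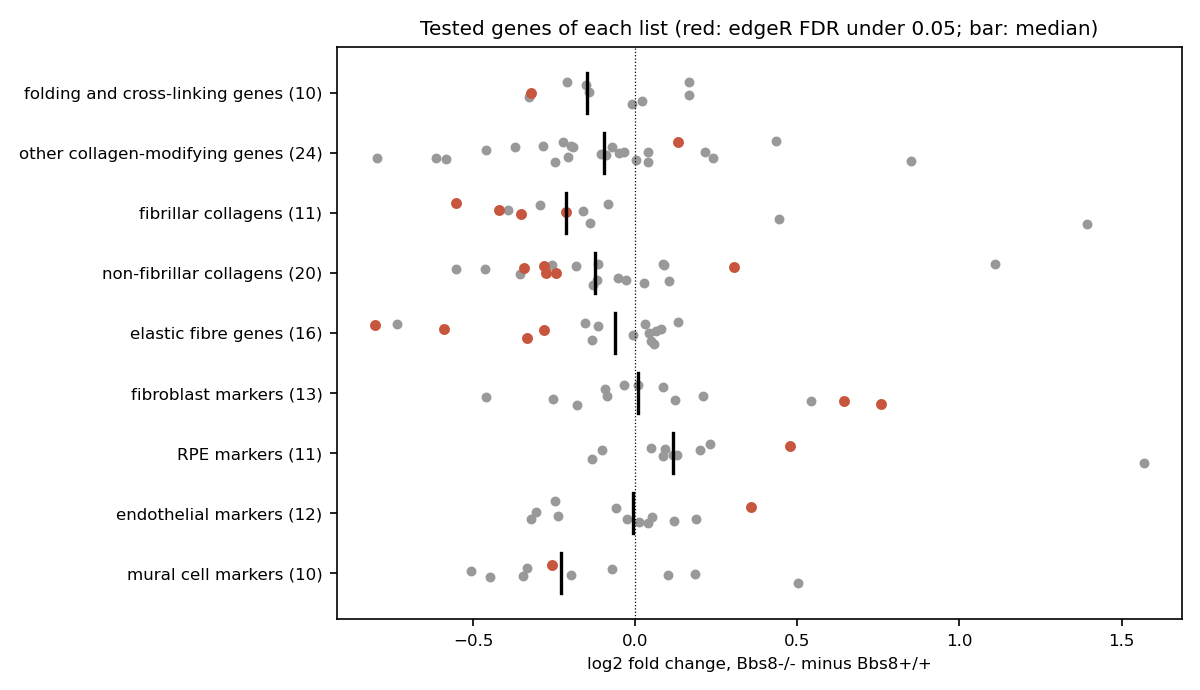
Log2 fold change in Bbs8-/- relative to Bbs8+/+ of every tested gene in each list, with the number tested in brackets, red for edgeR FDR under 0.05 and a bar at the median. The folding and cross-linking genes have a median of -0.15, the fibrillar collagens of -0.21 and the fibroblast markers of 0.01.

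Summed levels of several other marker lists also differed between the genotypes. The summed level of 10 mural cell markers was 1336 to 1387 CPM in Bbs8+/+ and 1191 to 1265 CPM in Bbs8-/-, with 1 gene lower past FDR 0.05. That gene, Rgs5, which encodes a regulator of G protein signalling in pericytes (log2 fold change -0.26, edgeR FDR = 0.000858), held 50.5% of the sum, and without it the ranges overlapped at 619 to 687 against 611 to 678 CPM. The sum of 12 endothelial markers was 1075 to 1135 CPM against 1068 to 1175 CPM, with 1 higher. The 11 RPE markers summed to 17874 to 18903 against 19370 to 19719 CPM, with 1 higher (Otx2), so the labelled tissue was present in every library. Ttr, the gene of the thyroid hormone carrier transthyretin, supplied most of that sum, with a mean of 10955 CPM in Bbs8+/+ and 11676 CPM in Bbs8-/- (log2 fold change 0.09, edgeR FDR = 0.0689, and 0.00571 without Bbs8+/+ replicate 3). Rpe65, which encodes the retinoid isomerase of the visual cycle and is named after its values were seen, had a log2 fold change of -0.13 (edgeR FDR = 0.0842, and 0.0322 without Bbs8+/+ replicate 3 or 0.0428 without Bbs8-/- replicate 2). Pigment markers summed to 14411 to 15090 against 11960 to 12514 CPM with 7 of 11 lower, photoreceptor markers to 511 to 559 against 413 to 475 CPM with 2 of 12 lower, and Schwann cell and myelin markers to 530 to 605 against 421 to 508 CPM with 3 of 9 lower. Higher in Bbs8-/- were the sums of lens markers, at 221 to 254 against 56.3 to 70.6 CPM with 7 of 12 higher, and of macrophage markers, at 527 to 582 against 443 to 496 CPM with 2 of 10 higher. Skeletal muscle markers overlapped at 2346 to 2542 against 2527 to 2764 CPM with 2 of 14 higher, as did cartilage markers at 388 to 443 against 381 to 468 CPM, of which 5 of 10 could be tested, 1 was higher and 1 lower, and 3 had no count in any library. Without the most abundant gene of the list, the sums of photoreceptor markers (360 to 405 against 314 to 369 CPM) and macrophage markers (204 to 235 against 227 to 262 CPM) overlapped, and those of cartilage markers (156 to 184 against 209 to 224 CPM) did not. The part of these differences in the result for Serpinh1 was not tested.

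The 4 Y-linked genes listed, which mark male cells and not a tissue, summed to 59.1 to 65 CPM in Bbs8+/+ and 108 to 120 CPM in Bbs8-/-, without overlap, and 3 of them were higher past FDR 0.05 in the edgeR quasi-likelihood test. Y-linked transcripts were present in every library, with Ddx3y at 36.0 to 41.6 CPM in Bbs8+/+ and 59.1 to 67.3 CPM in Bbs8-/- (log2 fold change 0.69, edgeR FDR = 0.000472). The labels do not give the sex of the animals, no comparison here was adjusted for it, and the part of this difference in the result for Serpinh1 was not tested.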

How the data were processed

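RNA of P11 eyecups from 4 Bbs8+/+ and 4 Bbs8-/- mice was sequenced by QuantSeq. The authors deposited raw counts of reads per gene, made by trimming with BBDuk, alignment with STAR to mm10 and counting with htseq-count; the strand setting is not given in the sources used here. Totals were 1636725 to 2884983 counts per library, and the floor of 3 counts covers counting error only. No files held identical values. Genes with at least 1 CPM in 4 libraries were tested with edgeR 4.0.16 in R 4.3.3 (TMM, quasi-likelihood F test, genotype only, two-sided) and adjusted over all 13813 genes by Benjamini-Hochberg. The standard error was the absolute log2 fold change divided by the square root of F. Shares were compared by exact permutation tests in SciPy 1.17.1. Positions came from GENCODE M21 and promoter windows from RefSeq, both GRCm38. Of 231 listed genes 230 were found, and 1 whose symbol has several identifiers was left out.

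The members and all gene lists were chosen with earlier results of these data known. The genes named were the 10 members, Ttc8, and, from each collagen, elastic fibre and hypoxia list, those past FDR 0.05 and the 4 of highest mean CPM. From the marker lists the rule allowed those past FDR 0.05 and the gene of highest mean CPM. Alternatives were RLE factors, total counts, filterByExpr, no filter, a likelihood ratio test, DESeq2 1.42.0, a replicate block, and leaving out each library. Leaving out Gm42418 and mitochondrial genes was added after seeing the data, as were all ratios to collagen, Pcolce or Eln of single genes.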

Additional observations from a re-analysis of the deposited data

Results flagged for a closer look

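In 120 groups of 4 libraries, 2 had a single library far from the other 3 by Dixon's criterion, where about 6 would be expected at 1 in 20. Bmp1 was high in Bbs8+/+ replicate 3, at 50.1 CPM, with the others between 44.4 and 44.9 CPM. Col11a1 was high in the same library, at 1320 CPM, with the others between 1083 and 1107 CPM. Neither gene passed FDR 0.05 in the edgeR quasi-likelihood test.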

How the results depend on the processing

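Of 22 named genes past FDR 0.05, 13 passed in every alternative run, 9 missed it in at least 1 and none changed sign; of 25 named genes not past it, 4 (Adamts2, Col2a1, Rpe65 and Ttr) passed in at least 1 and 6 changed sign in at least 1. The causes were not tested beyond the libraries left out. Adamts2 passed with total counts only (-0.33), with filterByExpr (-0.32) and without Bbs8-/- replicate 4 (-0.37). Each of these raised the count of the 10 genes past FDR 0.05 as lower from 1, Serpinh1, to 2. Leaving out 1 library gave 1 to 2 of the 10 genes lower, 0 to 1 non-fibrillar collagens higher, 2 to 3 lower, and 2 to 4 elastic fibre genes lower. The likelihood ratio test gave 0 other collagen-modifying genes higher, 1 fibrillar collagen higher (Col2a1, also with filterByExpr, named after its values were seen), and 0 non-fibrillar collagens higher and 2 lower; total counts only also gave 0 higher. The log2 fold changes of 6 genes short of the threshold changed sign when 1 library was left out, with ranges of -0.293 to 0.0261 for P4ha1, -0.209 to 0.334 for P4ha2, -0.0683 to 0.0364 for Loxl1, -0.0677 to 0.0385 for P4hb, -0.0195 to 0.0902 for Col8a2 and -0.0238 to 0.104 for Ddit4. Dcn was left out of the fibroblast markers after seeing the data, and the 10 genes per 1000 CPM of markers then differed by -94.9 in place of -24.15. These 2 differences are on unlike scales, since Dcn held 87% of the marker sum. The means without Dcn were 1632 in Bbs8+/+ and 1537 in Bbs8-/-, with overlap. With Dcn they were 218.9 and 194.8, without overlap. Serpinh1 was -0.336 to -0.30, and Adamts2 -0.37 to -0.279, without single libraries.

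Replicate numbers are shared between the genotypes in the titles but no source states that they pair animals, and deviations of same-numbered libraries correlated at 0.0192, 0.00672, -0.0245 and -0.0289 over 9042 genes, with 1 of the 4 numbers best matched to itself. With a replicate block the log2 fold change of Serpinh1 was -0.32 and 1 of the 10 genes was lower. The counts of all genes were 134 higher and 129 lower with the block, against 152 and 157 without it. The block gave 0 non-fibrillar collagens higher and 2 lower, and 2 elastic fibre genes lower. The Plod1 share differed by 6.23 percentage points with the block too, with an exact p of 0.125, the smallest that 4 paired differences allow. P4ha2 had 4 to 18 counts per library, and the part of depth in its wide interval was not tested.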
